A study of Mus musculus with 2 samples.

Results

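Ephrins and Eph receptors were described in mouse CD41-positive cells cultured with an inhibitor of LSD1 or with its solvent. The genes were chosen by family, with earlier results of these data known, and comprise 10 of the 21947 genes that the array names: the ephrin-B ligands Efnb1 and Efnb2, the ephrin-A ligand Efna1, the EphB receptors Ephb1, Ephb2, Ephb3 and Ephb4, and the EphA receptors Epha2, Epha4 and Epha7. All 10 were measured. One array held RNA of cells grown with 300 nM of compound B, an inhibitor of the histone demethylase LSD1 known here by that code name, and the other array RNA of cells grown with DMSO. Both cultures began from FLK1-positive mesoderm of embryoid bodies on day 3, made from the Bry-GFP embryonic stem cell line, and the CD41-positive cells were sorted on culture day 2. The labels call the cells hemogenic endothelial, a term for endothelium from which blood arises, and do not say how many cultures each array stands for.

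With 1 array per condition there was no replicate, no test and no error between samples, and every difference below compares these 2 arrays. Differences run as inhibitor minus DMSO in log2 intensity, and an SD is the spread over the probesets of a gene, which are not replicates. In these bulk cells, a change in how many cells of a type were present and a change in RNA per cell cannot be told apart. The endothelial gene Cdh5, which encodes VE-cadherin, had a level of 9.84 in the inhibitor array and 7.89 in the DMSO array, the CD41 gene Itga2b 5.996 in the inhibitor array and 6.19 in the DMSO array, and the blood regulator Runx1 8.60 in the inhibitor array and 8.44 in the DMSO array. All 12 endothelial markers and 9 of the 11 early blood and megakaryocyte markers were measured. Their levels were above the table's median value of 3.17 in both arrays, except the platelet gene Pf4 in the inhibitor array (2.70). Itga2b and Runx1 are among the 9 measured blood markers, of which 3 differed by more than 0 and 6 by less.

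Ephrins are ligands that stay on the cell surface, so they signal where cells touch. Ephrin-B ligands span the membrane and ephrin-A ligands are held by a lipid anchor. Binding starts forward signalling in the cell with the Eph receptor, a tyrosine kinase, and reverse signalling in the cell with the ephrin. In embryonic vessels ephrin-B2, encoded by Efnb2, marks arterial endothelium and its receptor EphB4 marks venous endothelium, and mice lacking either gene fail to remodel their first vessels.

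Of the 10 genes, Efnb2 and its receptor gene Ephb4 had the largest differences upward, and Efnb1 and Epha4 the largest downward. Efnb2 was 2.00-fold higher with the inhibitor and Ephb4 was 1.86-fold higher, and for both genes each probeset had the higher value in the inhibitor array. Efnb1 was 1.63-fold lower and Epha4 was 1.63-fold lower, with most but not all of their probesets lower. Differences of the other 6 genes lay between -0.48 and 0.32.

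A gene was called past the size rule at a difference of 2-fold with at least 75% of its bright probesets in that direction, a bright probeset being one whose higher value reached the table's median. By this rule 1 of the 10 genes, Efnb2, was higher and none was lower. Among all 15087 measured genes 1.72% were higher and 0.563% were lower by the same rule. At 1.5-fold, Efnb2 and Ephb4 were higher and Efnb1 and Epha4 were lower, 2 of 10 in each direction. At that size 5.85% of all measured genes were higher and 2.66% were lower. The median difference of the 10 genes was 0.03, beside 0.06 over all measured genes, with 5 of the 10 above 0 and 5 below. The median of their absolute differences was 0.40, beside 0.19 over all measured genes.

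**Figure D1:**
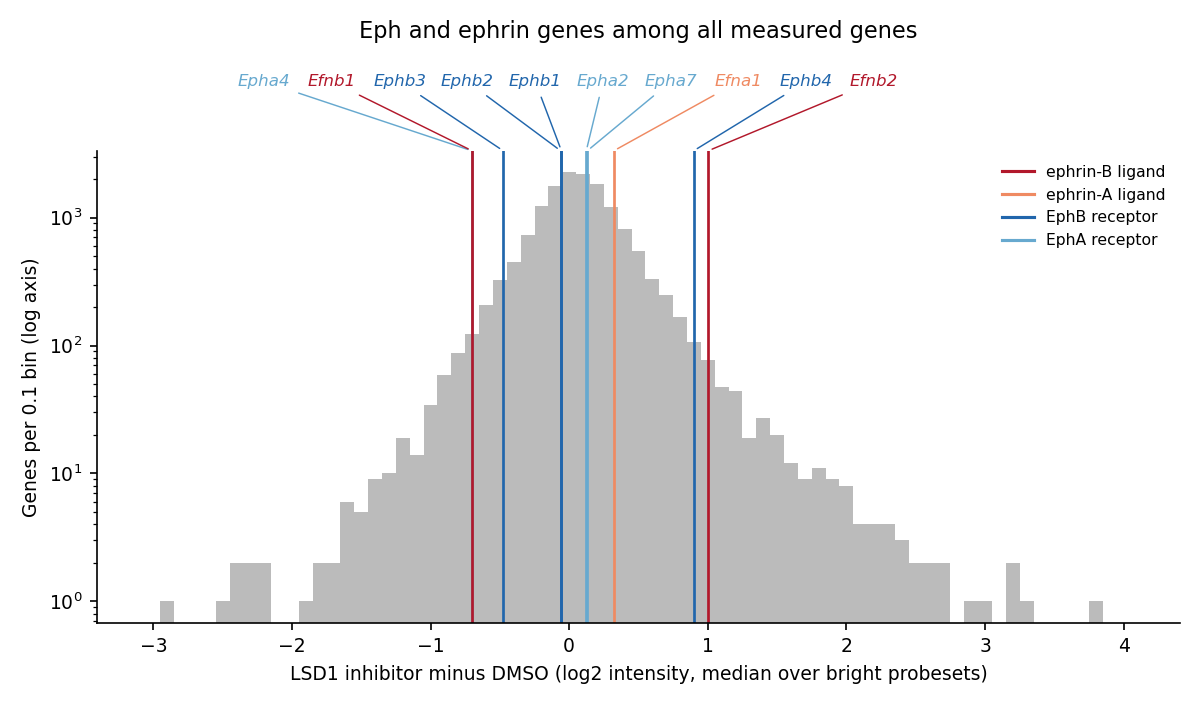
Histogram of the difference (x axis, inhibitor minus DMSO in log2 intensity) over the 15087 measured genes, on a log axis of genes per bin, with a coloured line at each of the 10 Eph and ephrin genes. Efnb2 at 1.003 and Ephb4 at 0.90 lie on the right shoulder, Efnb1 and Epha4 at -0.70 on the left shoulder, and the other 6 nearer the centre.

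**Figure D2:**
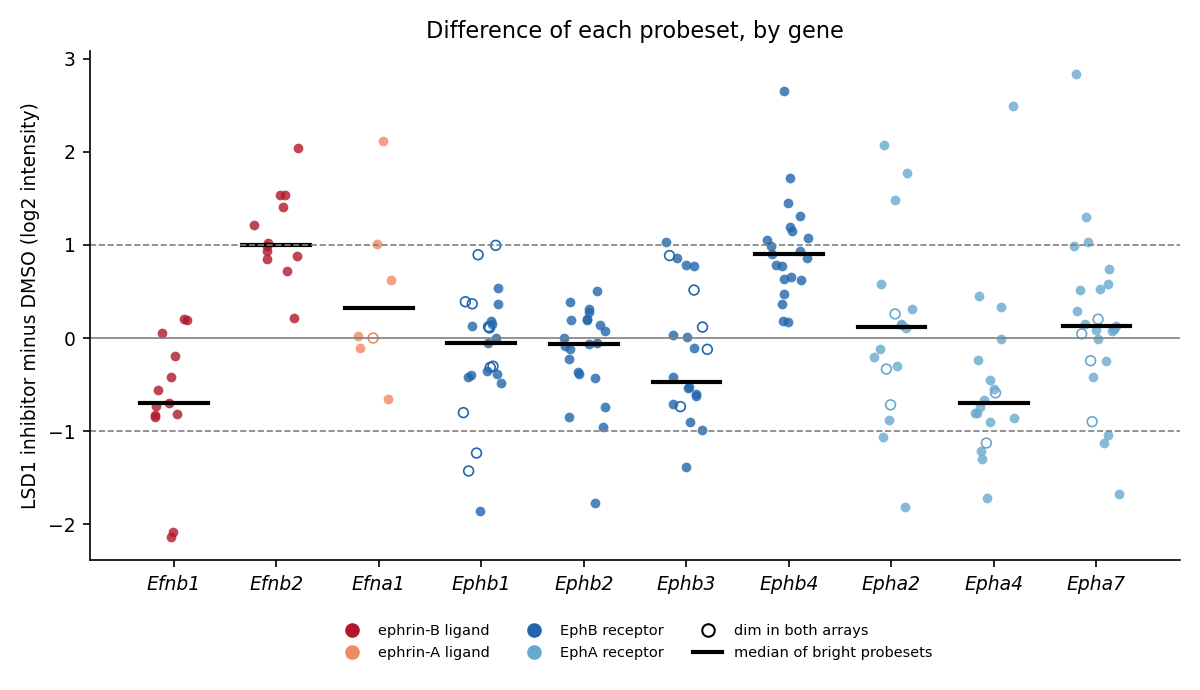
Difference of every probeset (y axis, inhibitor minus DMSO in log2 intensity) for each of the 10 genes, with filled points for bright probesets, open points for probesets dim in both arrays, bars at the gene's median and dashed lines at a 2-fold difference. All points of Efnb2 and Ephb4 lie above 0, and those of the other 8 genes lie on both sides of it.

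Among the ligands, Efnb2 had a level of 7.24 in the inhibitor array and 6.10 in the DMSO array, each the median of 12 probesets. Its probesets ran from 5.36 to 9.22 in the inhibitor array and from 4.30 to 8.20 in the DMSO array. All 12 were bright in both arrays, so none of these values lay at the dim end of the table. The median of the probeset differences was 1.003 (SD 0.47), the smallest was 0.22 and the largest 2.04, and 6 of the 12 reached 2-fold on their own. The largest belonged to probeset 5193704, with 7.10 in the inhibitor array and 5.06 in the DMSO array. The smallest belonged to probeset 5322522, with 5.36 in the inhibitor array and 5.14 in the DMSO array. Of all measured genes, 1.74% had a difference at or above that of Efnb2.

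The size of the Efnb2 difference sat at the threshold, so its call depended on the setting. The difference was 0.95 after quantile normalization of the arrays, 0.94 with a level-dependent trend removed, 0.95 with the median gene set to 0 and 0.89 with even-ranked probesets alone, all short of 2-fold. It was 1.21 with odd-ranked probesets alone. In each of 15 settings tried it stayed above 0.

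Efnb1 encodes ephrin-B1, the X-linked ephrin-B ligand of the boundary between cell groups in the embryo. Its level was 5.72 in the inhibitor array and 6.30 in the DMSO array. The difference over its 13 probesets was -0.70 (SD 0.74), and 10 of the 13 were lower with the inhibitor. The 3 probesets that were higher differed by 0.05, 0.19 and 0.20. A pair of probesets stood apart from the rest: probeset 5303484 had 4.15 in the inhibitor array and 6.29 in the DMSO array, and probeset 4774302 had 3.40 in the inhibitor array and 5.48 in the DMSO array. Its brightest probeset, 4925173, had 9.54 in the inhibitor array and 9.34 in the DMSO array and so went the other way. The 7 brighter probesets had a median difference of -0.42 and the 6 dimmer ones -0.83.

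These ephrin-B ligands differed in opposite directions, and the Efnb2 difference exceeded that of Efnb1 by 1.70 on the log2 scale. Efna1, which encodes ephrin-A1, an anchored ligand of EphA receptors, had a level of 4.28 in the inhibitor array and 4.05 in the DMSO array. Its difference of 0.32 rested on 6 bright probesets with an SD of 0.98, and 4 of the 6 were higher. With its dim probeset kept, the difference was 0.02. Probeset 4522868 of Efna1 had 4.08 in the inhibitor array and 1.97 in the DMSO array, which was the one Efna1 probeset bright in the inhibitor array alone.

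**Figure D3:**
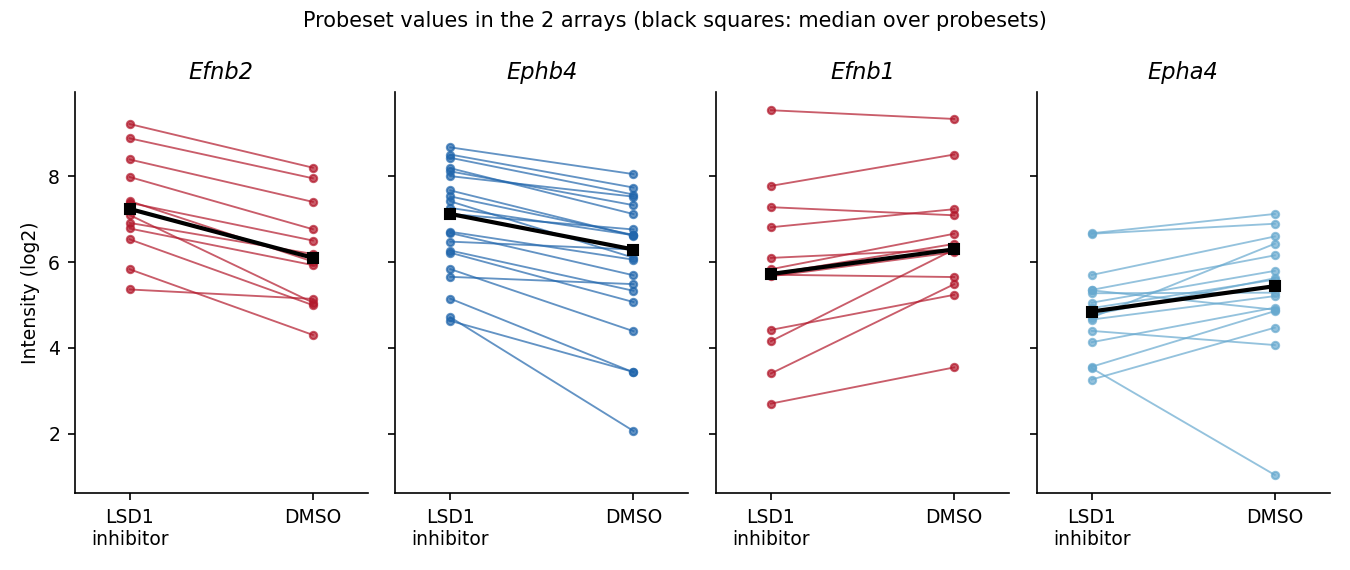
Values of each bright probeset (coloured points joined by lines, log2 intensity) in the inhibitor array on the left and the DMSO array on the right for Efnb2, Ephb4, Efnb1 and Epha4, with the gene's median level as black squares. Every line of Efnb2 and Ephb4 goes down from the inhibitor array to the DMSO array, whereas 10 of 13 lines of Efnb1 and 13 of 16 lines of Epha4 go up.

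Among the EphB receptors, Ephb4 had a level of 7.12 in the inhibitor array and 6.29 in the DMSO array. Its 21 probesets ran from 4.63 to 8.68 in the inhibitor array and from 2.06 to 8.05 in the DMSO array, and all 21 had the higher value with the inhibitor. The gene's difference was 0.90 (SD 0.55), short of the 2-fold size, and 8 of the 21 probesets reached 2-fold on their own. The probesets differed by between 0.17 and 2.65. The largest was that of probeset 4944922, with 4.71 in the inhibitor array and 2.06 in the DMSO array, which was also the only Ephb4 probeset below the table's median in the DMSO array. The 11 brighter probesets had a median difference of 0.79 and the 10 dimmer ones 1.07. Of all measured genes, 2.45% had a difference at or above that of Ephb4, and the gene's value ran from 0.79 to 0.95 over the 15 settings.

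Probesets that all went the same way were uncommon. Of the 8377 genes with at least 10 bright probesets, 1.87% had every one higher in the inhibitor array and 0.31% every one lower. Of the 9 Eph and ephrin genes with that many, 2 had every one higher, Efnb2 and Ephb4, and none had every one lower.

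Ephb2, a receptor of axon guidance and tissue boundaries, had a level of 5.66 in the inhibitor array and 5.76 in the DMSO array over 22 probesets, all of them bright. Its difference was -0.06 (SD 0.53), with 10 probesets higher and 12 lower. The Ephb4 difference exceeded that of Ephb2 by 0.96 on the log2 scale. The brightest Ephb2 probeset, 5344669, had 10.69 in the inhibitor array and 10.78 in the DMSO array.

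Ephb1 and Ephb3, receptors that like Ephb2 bind ephrin-B ligands, were measured on fewer bright probesets. Of the 24 Ephb1 probesets, 11 were dim in both arrays and 10 were bright in both. Its level over the 13 bright ones was 3.72 in the inhibitor array and 3.78 in the DMSO array, with a difference of -0.06 (SD 0.60) and 6 higher against 7 lower. The brightest of them, probeset 5309403, had 7.41 in the inhibitor array and 7.80 in the DMSO array. Ephb3 had a level of 3.86 in the inhibitor array and 4.02 in the DMSO array over 16 of its 21 probesets, and a difference of -0.48 (SD 0.73). It had 6 higher and 10 lower probesets, and its difference was -0.12 when the 5 dim probesets were kept.

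Among the EphA receptors, Epha4, which binds ephrins of both classes, had a level of 4.85 in the inhibitor array and 5.44 in the DMSO array. Its difference was -0.70 (SD 0.97) over 16 bright probesets, 13 of which were lower with the inhibitor and 3 of which reached 2-fold on their own. The 8 brighter probesets had a median difference of -0.70 and the 8 dimmer ones -0.68. A single probeset, 4600428, went far the other way, with 3.53 in the inhibitor array and 1.03 in the DMSO array. As a mean over probesets, which gives that probeset its full weight, the Epha4 difference was -0.44, and with even-ranked probesets alone it was -0.23. Of all measured genes, 2.06% had a difference at or below that of Epha4 and 2.08% at or below that of Efnb1.

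Epha2, a receptor of ephrin-A1 in epithelium and in vessels that form in tumours, had a level of 3.87 in the inhibitor array and 4.08 in the DMSO array and a difference of 0.12 (SD 1.08) over 14 bright probesets, 8 of them higher. The order of its levels and the sign of its difference thus disagreed, since the difference is the median over the probeset differences. Of the 14 bright Epha2 probesets, 4 were bright in the inhibitor array alone and 1 in the DMSO array alone. The sign turned in 3 of the 15 settings. The Epha2 difference was -0.12 filtered on the mean of the 2 values, -0.37 filtered at the 75th percentile and -0.12 with even-ranked probesets. Epha7, a receptor best known from the nervous system, had a level of 4.57 in the inhibitor array and 4.26 in the DMSO array and a difference of 0.13 (SD 0.94) over 21 bright probesets, 15 of them higher. Of all measured genes, 6.81% had as large an SD over probesets as Epha2 and 13.5% as large a one as Epha7.

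**Figure D4:**
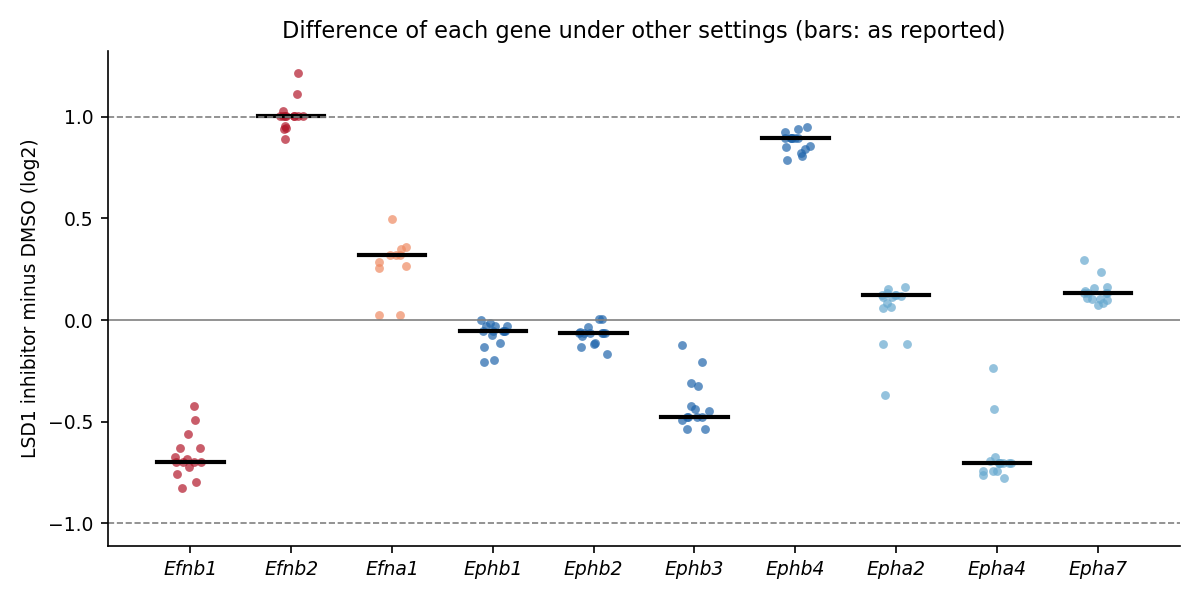
Difference of each of the 10 genes (y axis, inhibitor minus DMSO in log2) under the other settings tried, up to 15 per gene, with black bars at the value reported and dashed lines at a 2-fold difference. Efnb2 moves across the 2-fold line, Ephb4 stays below it, and Ephb1, Ephb2 and Epha2 have points on both sides of 0.

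The promoters of the 4 genes with the largest absolute differences are printed because those genes lay furthest from 0, Efnb2 and Ephb4 upward and Efnb1 and Epha4 downward. The sequences are the 250 bases before the RefSeq gene start in the mouse build GRCm38.p6, 5′ to 3′ on the gene's strand. They lie at chr8:8661243-8661492 on the minus strand for Efnb2, chr5:137349859-137350108 on the plus strand for Ephb4, chrX:99135811-99136060 on the plus strand for Efnb1 and chr1:77515089-77515338 on the minus strand for Epha4. Capitals mark AATC, the core of the sites of the repressors Gfi1 and Gfi1b, and CCAAT, the CCAAT box, each searched on both strands, so that GATT and ATTGG are the same motifs on the other strand.
Efnb2: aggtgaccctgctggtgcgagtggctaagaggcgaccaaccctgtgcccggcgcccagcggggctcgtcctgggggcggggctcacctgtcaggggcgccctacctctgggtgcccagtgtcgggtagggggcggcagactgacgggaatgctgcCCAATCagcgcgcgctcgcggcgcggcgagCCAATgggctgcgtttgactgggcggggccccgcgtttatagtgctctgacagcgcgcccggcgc
Ephb4: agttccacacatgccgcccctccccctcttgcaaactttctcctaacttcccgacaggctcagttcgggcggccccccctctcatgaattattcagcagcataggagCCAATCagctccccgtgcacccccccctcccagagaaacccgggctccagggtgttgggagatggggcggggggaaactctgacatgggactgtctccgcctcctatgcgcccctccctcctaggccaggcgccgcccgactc
Efnb1: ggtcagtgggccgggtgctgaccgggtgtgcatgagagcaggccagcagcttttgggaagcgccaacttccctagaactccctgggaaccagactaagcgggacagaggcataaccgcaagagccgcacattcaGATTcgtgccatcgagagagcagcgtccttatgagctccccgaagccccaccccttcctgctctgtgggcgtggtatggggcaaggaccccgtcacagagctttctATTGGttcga
Epha4: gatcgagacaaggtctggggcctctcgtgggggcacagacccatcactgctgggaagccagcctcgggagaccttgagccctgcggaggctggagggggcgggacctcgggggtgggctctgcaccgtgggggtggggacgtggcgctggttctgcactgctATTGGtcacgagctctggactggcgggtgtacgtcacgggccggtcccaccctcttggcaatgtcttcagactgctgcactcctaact

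In the Efnb2 and Ephb4 windows the Gfi core lies inside a longer run of capitals, where it overlaps a CCAAT box that begins 95 bases before the start of Efnb2 and 143 bases before the start of Ephb4. Efnb2 has another CCAAT box 65 bases before its start. In Efnb1 both motifs occur apart and on the other strand, and the Epha4 window holds a CCAAT box on the other strand and no Gfi core. Of 32851 promoter windows of the same length, 69.0% held the Gfi core and 33.8% a CCAAT box. Each motif was found in 7 of the 10 Eph and ephrin genes, which have 12 windows, counting a gene if any window held it. The shares are per window and the counts per gene, and the CCAAT box was added after the sequences were seen. The 4 printed windows held 60% to 72% GC, beside a median of 52.4% over all windows. An excess of either motif was not tested.

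The letters AGATAA of a GATA site, searched on both strands, were in none of the 10 genes' windows and in 9.99% of all windows. The letters TGGGAA of a site of RBPJ, the DNA-binding partner of Notch, were in the windows of Efnb1, Epha4 and Epha7 and in 21.6% of all windows. A letter match is a description of these windows and not a measured binding site.

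Other genes of the family were described in the same way. Of 12 further Eph and ephrin genes 11 were measured, none passed the size rule in either direction, and their median difference was 0.05. The largest absolute differences were those of Epha6 (-0.53, 12 of 14 probesets lower), Epha5 (0.45, 9 of 12 higher), Epha8 (0.42, 7 of 11 higher) and Epha3 (-0.35, 4 of 7 lower), all receptors of ephrin-A ligands. Ephrin-B3, encoded by Efnb3, the third ephrin-B ligand, differed by 0.26 with 7 of 10 probesets higher. Ephb6, a receptor without kinase activity, differed by -0.15 with 8 of 19 higher.

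In the list drawn up for Eph forward signalling, all 26 genes were measured, 1 was higher past the size rule, none was lower, and the median difference was 0.19. A part of each gene in Eph signalling in these cells was not tested. Arhgef15, an exchange factor of the ephexin family that is found in endothelium, had a level of 6.34 in the inhibitor array and 4.87 in the DMSO array and differed by 1.61 (SD 0.75), with 20 of 20 probesets higher. The exchange factor gene Tiam1 differed by 0.77 with 30 of 38 probesets higher, the inositol phosphatase gene Inpp5d by 0.54 with 25 of 31 higher and the adaptor gene Crk by 0.49 with 5 of 5 higher, all short of the size rule. Inppl1, another inositol phosphatase gene of the list, differed by 0.44 with 27 of 30 higher. Ngef, which encodes the neuronal ephexin, differed by -0.06.

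In the list of ephrin-B reverse signalling and cleavage, 20 of 21 were measured, 1 was higher past the rule, none was lower, and the median difference was -0.03. Whether any gene of this list acts on ephrin-B ligands in these cells was not tested. The matrix metalloprotease gene Mmp2 had a level of 7.39 in the inhibitor array and 5.77 in the DMSO array and differed by 1.44 (SD 0.54), with 13 of 13 probesets higher. Tjp1, which encodes the junction scaffold ZO-1, differed by 0.74 with 27 of 28 higher, the spindle orientation gene Gpsm2 by -0.66 with 12 of 13 lower and Rgs3, which binds the ephrin-B tail, by 0.57 with 29 of 41 higher. The protease gene Adam10, which cleaves ephrins, differed by -0.16, and the adaptor gene Nck2, also counted among the forward signals, by -0.18.

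Arterial and venous genes were set beside Efnb2 and Ephb4. Of 19 arterial genes 16 were measured, 2 were higher past the size rule and none was lower. The median was 0.17, with 10 genes above 0 and 6 below. The higher ones were the Notch target Hey2 (difference 2.32, 10 of 10 probesets higher) and the receptor gene Notch1 (1.38, 33 of 36 higher). Hey1 of the same list differed by -0.31 with 6 of 7 probesets lower. The netrin receptor gene Unc5b differed by 0.83 with 19 of 20 higher, the transcription factor gene Sox17 by 0.58, the ligand gene Dll4 by 0.04, the connexin gene Gja5 by -0.52 and Nrp1, a coreceptor of VEGF, by -0.16. Of 8 venous genes, of which Ephb4 is 1, 6 were measured and none passed the size rule, with 5 above 0 and 1 below. Their median of 0.71 includes the Ephb4 value itself, so it is not a separate comparison for Ephb4. Emcn, which encodes endomucin, differed by 1.02 but in 10 of 14 probesets, Tek, which encodes the angiopoietin receptor TIE2, by 0.91 in 27 of 27, Flt4, which encodes VEGFR3, by 0.52 in 22 of 29, and Nr2f2, the venous transcription factor gene, by 0.16 in 8 of 11. Vwf went the other way, with a difference of -0.29 and 30 of 48 probesets lower. Tek and Emcn of the venous list and Sox17 of the arterial list are also in the list of endothelial markers.

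Marker lists of the cell types that the sorted cells could hold were set beside these values. Of the 12 endothelial markers, all 12 were above 0, 6 passed the size rule, the median was 1.13, and their mean level was 7.01 in the inhibitor array and 5.71 in the DMSO array. The Efnb2 and Ephb4 differences lay in the lower part of the range of these markers: 7 of the 12 differed by more than Efnb2, 3 lay between Efnb2 and Ephb4, and 2 differed by less than Ephb4. Of 9 measured smooth muscle and mesenchyme markers, 8 were below 0 and 1 passed the size rule as lower, the median was -0.33, and their mean level was 5.73 in the inhibitor array and 6.10 in the DMSO array. They ran from -1.40 for the matrix gene Dcn, the one past the rule, to 0.30 for the contractile gene Cnn1. The Dcn level was 2.89 in the inhibitor array, below the table's median, and 3.85 in the DMSO array. Of the 17 Dcn probesets, 8 were bright. All 7 measured erythroid markers were below 0, 4 of them past the size rule, with a median of -1.12 and a mean level of 7.80 in the inhibitor array and 8.997 in the DMSO array. The part of these markers' cells in the Eph and ephrin differences was not tested.

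Of 9 measured early blood and megakaryocyte markers, 1 was higher past the size rule, the repressor gene Gfi1b (1.56), and 1 was lower, Pf4 (-2.29). The median was -0.25, with 3 markers above 0 and 6 below. Short of the rule, Kit differed by -0.66 and Myb by -0.35, each with 20 of 22 probesets lower. No cardiac mesoderm, neural or pluripotency marker passed the size rule, and the median was 0.16 over 6 cardiac mesoderm markers, 0.18 over 5 neural markers and 0.05 over 3 pluripotency markers. Of the 5 neural markers, 4 were above 0 and 1 was below. The neural marker Tubb3 differed by 0.95 with 7 of 8 probesets higher, and Nes by 0.61 with 20 of 21 higher.

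**Figure D5:**
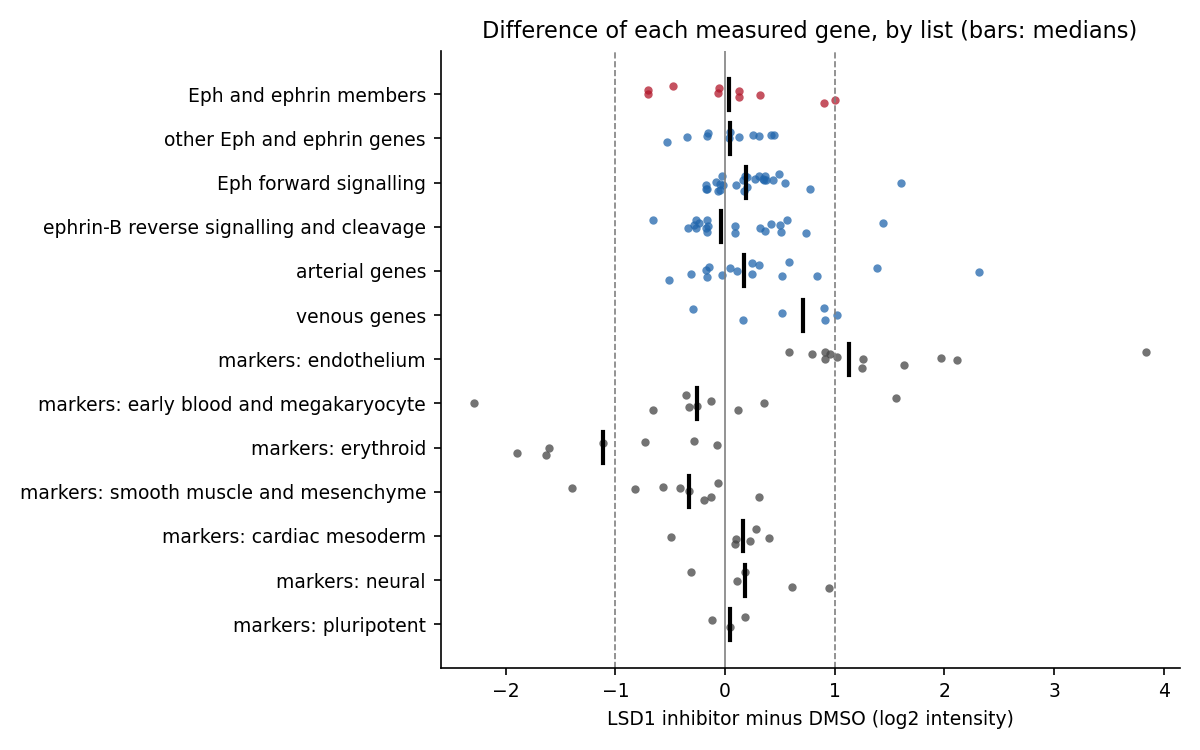
Difference of each measured gene (x axis, inhibitor minus DMSO in log2 intensity) for the 10 Eph and ephrin genes in red, the 5 gene lists in blue and the 7 marker lists in grey, with black bars at the medians and dashed lines at a 2-fold difference. Endothelial markers lie to the right of 0 and erythroid markers to the left, and the 10 Eph and ephrin genes spread to both sides with a median of 0.03.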

How the data were processed

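The deposited table gives 1 value per probeset for 2 Affymetrix arrays, read here as log2 intensity from its range of 0.157 to 13.5. Per the labels' protocols, total RNA was amplified and biotin-labelled cDNA was hybridised. No source used here names the summarisation, normalization or genome build, and there are no detection calls. As deposited, the 2 arrays had closely matching distributions. The median was 3.16 in the inhibitor array and 3.18 in the DMSO array, and the largest gap between values of equal rank was 0.085. The table's 1048575 probesets fill a spreadsheet's row limit with the header, so further probesets of a gene may exist and were not analysed here.

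The platform annotation named 270105 probesets with 1 gene symbol. Of 22133 symbols, 17905 were current in RefSeq (GRCm38.p6), 4167 were updated through synonyms and 61 kept. A gene needed 4 bright probesets (higher value at or above the table's median, 3.17), and level and difference are medians over them. Values were not rescaled. No test was possible, and precision is limited by having 2 arrays. The summary was tested on simulated data (Python 3.11.15, pandas 2.3.3, statsmodels 0.14.6). The simulated shifts were larger than the size rule and were put into brighter genes with many probesets. They say nothing about differences near 2-fold or about dim genes.

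All 10 genes are named, and in each of the 5 lists those past the size rule and up to 4 with the largest differences, with a few others chosen after their values were seen. Members and lists were chosen with earlier results of these data known. Promoter sequences came from RefSeq, which matched all 10 genes, with the CCAAT box added as a motif after the sequences were seen. Alternatives covered scaling, the dim filter, the summary over probesets, probeset subsets and thresholds.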

Additional observations from a re-analysis of the deposited data

How the results depend on the processing

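The count of Eph and ephrin genes that were higher, 1 as reported, was 0 after quantile normalization, with a level-dependent trend removed, with even-ranked probesets alone, with the median gene set to 0 (chosen after seeing the data) and at 3-fold, and 2 at 1.5-fold. The lower count, 0 as reported, was 2 at 1.5-fold. Both counts were as reported under the other settings. The median difference of the 10 genes, 0.03, moved by over 0.1 to -0.10 with a filter at the 75th percentile (8 genes left) and -0.12 with even-ranked probesets (9 genes left). Efnb2, Ephb4 and Epha7 stayed above 0 and Efnb1, Ephb3 and Epha4 below 0 in each setting that measured them, as did Efna1, above 0, in the 11 that did. Ephb1 turned to 0.0007 with odd-ranked probesets and Ephb2 to 0.004 with odd-ranked or with brighter probesets alone. The causes were not tested.

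Of all 15087 measured genes, 259 were higher and 85 lower (1.72% and 0.563%). These counts became 193 and 51 with dim values raised to the table's median, 882 and 402 at 1.5-fold, and 70 and 18 at 3-fold. Further settings also changed how many genes were measured. With at least 1 bright probeset, 641 and 439 of 20424 genes passed (3.14% and 2.15%). With at least 8, 155 and 44 of 10350 passed (1.498% and 0.425%). With brighter probesets alone, 169 and 51 of 11427 passed (1.48% and 0.446%). No paired analysis was possible because each condition had 1 array. Values near the table's median, as for Ephb1, Ephb3 and Epha2, have no detection call, so a low level there may be background.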
